A study of Oryctolagus cuniculus with 4 samples.

Results

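OVGP1 encodes oviductal glycoprotein 1 and SCGB1A1 encodes uteroglobin, also called blastokinin. They are 2 of the 9786 genes named on the array. Every probe whose gene name, accession or description pointed to either gene was taken, which gave 11 of the 43603 probes, 1 for OVGP1 and 10 for SCGB1A1. Both genes were chosen by their measured ratio and their brightness on these arrays, so their levels and ratios are given here as a description and without a test.

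The experiment compared rabbit blastocysts at 6 days of age, all from does of the New Zealand White strain. The methods do not give the strain of the males whose pooled sperm was used for the fertilised group. Parthenotes came from oocytes activated without sperm, by electrical pulses followed by cycloheximide and 6-DMAP, and were transferred straight away to the oviducts of recipient does. The fertilised embryos, neither activated nor transferred, developed in inseminated does, and blastocysts of both groups were flushed from uterine horns. Ovulation had been induced in the oocyte donors, with buserelin acetate, and in the recipient and inseminated does. Transfer was by laparoscopy under anaesthesia. Total RNA of 8 pools of embryos was hybridised to 4 arrays of 2 colours, each with 1 parthenote pool in Cy3 and 1 fertilised pool in Cy5. The dyes were not swapped, so dye and group cannot be told apart, and the methods describe separate pools but do not tie a pool to its does. In pooled whole embryos, fewer cells of a type and less RNA per cell cannot be told apart either.

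Oviductal glycoprotein is secreted by non-ciliated cells of the oviduct epithelium, mainly under oestrogen, and binds to the zona pellucida of oocytes and embryos in the oviduct lumen. Its fold is that of the glycoside hydrolase family 18, the chitinase family, but it has no known chitinase activity. Uteroglobin is a small secreted protein that forms dimers and binds progesterone. It is a major protein of rabbit uterine fluid in early pregnancy, where progesterone raises its synthesis, and the same protein is made by club cells of the airways.

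The probes decide what was measured, so their sequences are given first, from the array files. The OVGP1 probe, A_04_P002246, covers bases 1214 to 1273 of its transcript, which the array files place on chromosome 13 from 52802443 to 52802502 without naming the genome build.
OVGP1 probe A_04_P002246: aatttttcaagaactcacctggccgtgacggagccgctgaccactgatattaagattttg
The SCGB1A1 probes fall into 2 tiled sets of 5, an earlier set starting at bases 259 to 263 of the transcript and a later set starting at bases 273 to 278. The array files give them no genome position. The first probe of the earlier set and the last probe of the later set are shown, with the 41 bases (278 to 318) that all 10 probes share in capitals.
SCGB1A1 probe A_04_P003570: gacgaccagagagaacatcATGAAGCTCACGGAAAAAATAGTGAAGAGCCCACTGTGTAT
SCGB1A1 probe A_04_P001936: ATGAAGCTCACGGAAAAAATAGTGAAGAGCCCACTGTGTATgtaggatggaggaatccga
All 10 SCGB1A1 probes lie within 79 bases, and they are therefore repeats of nearly the same measurement, not 10 independent ones. Of the 43592 other probes, none shared a run of 13 or more bases with the OVGP1 probe, and none shared 15 or more with any SCGB1A1 probe. The GC content of the members, 43.3% to 45.0%, lay at or just above the median of all probes, 43.3%.

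For OVGP1 the processed signal, which is the brightness of a spot after background subtraction and dye normalisation, was 3677, 3014, 19178 and 9412 in the parthenote pools of arrays 1 to 4. In the fertilised pools of the same arrays it was 238, 273, 1273 and 533. Every parthenote pool was brighter than every fertilised pool, and the lowest parthenote signal was 2.37 times the highest fertilised one. The log2 ratio of parthenote over fertilised within an array was 3.95, 3.46, 3.91 and 4.14, a mean of 3.87 ± 0.29 (SD, n = 4 arrays), or 14.6-fold. The fertilised signal thus stood at 6.46%, 9.07%, 6.64% and 5.66% of the parthenote signal. The scanner software's own error of a single log2 ratio was 0.38 to 0.44 for this spot, above the SD between the 4 arrays.

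SCGB1A1 was first read from its brightest probe, A_04_P003570, which gave 3296, 2788, 6405 and 3857 in the parthenote pools. The fertilised pools gave 726, 400, 958 and 397. The groups did not overlap here either, and the lowest parthenote signal was 2.91 times the highest fertilised one. The log2 ratios were 2.18, 2.80, 2.74 and 3.28, a mean of 2.75 ± 0.45 (SD, n = 4 arrays), or 6.73-fold. Over all 10 probes and 4 arrays the ratios ran from 2.13 to 4.14, and the mean of the 10 probes was 2.98 ± 0.59 (SD, n = 4 arrays). All 44 spots of the members were well above background in both channels, none was saturated or marked as an outlier, and all 44 ratios were above 0. The groups did not overlap for 11 of 11 probes, while 23.0% of all probes with a value in every channel separated in that direction and 11.8% in the other. Since the ratio was part of the choice of these genes, nothing is read from that count.

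**Figure D1:**
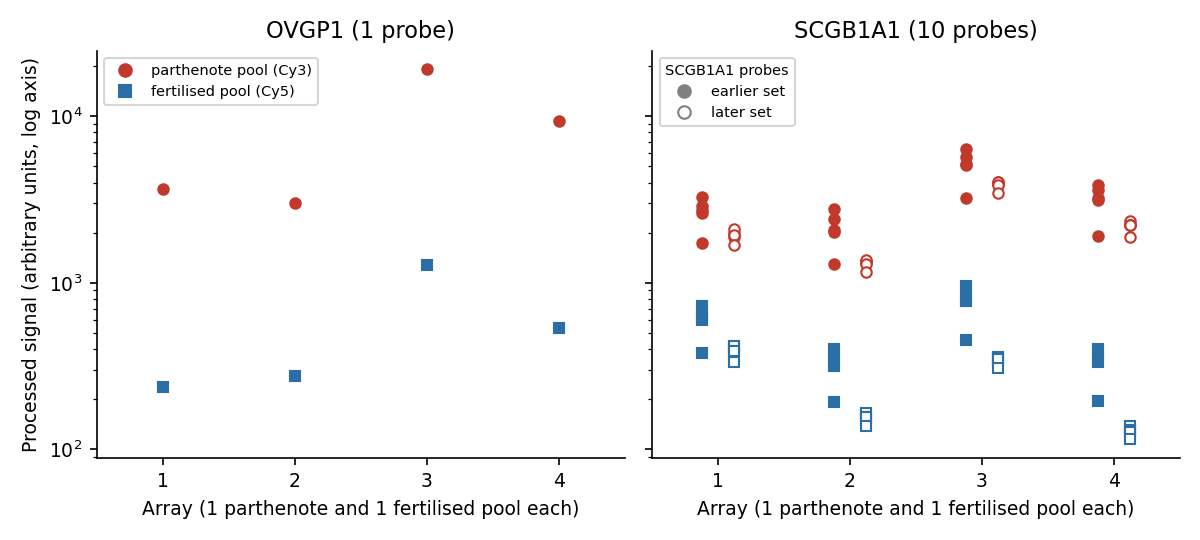
Processed signal (log axis) of the OVGP1 probe and of the 10 SCGB1A1 probes on each of the 4 arrays, with circles for the parthenote pool and squares for the fertilised pool, and for SCGB1A1 filled symbols for the earlier and open symbols for the later probe set. The OVGP1 parthenote signals run from 3014 to 19178, above the fertilised signals of 238 to 1273, and for both genes array 3 is the brightest in the parthenote channel.

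In brightness the OVGP1 spot ranked 4093, 4747, 1242 and 2029 among the 43603 probes in the parthenote channel of arrays 1 to 4. In the fertilised channel it ranked 14770, 14206, 7405 and 10753. Thus 89.1% to 97.2% of probes were dimmer in parthenotes and 66.1% to 83.0% in fertilised embryos. The brightest SCGB1A1 probe ranked 4405, 4997, 2732 and 3775 in parthenotes and 9856, 12437, 8544 and 11975 in fertilised embryos. Across its 10 probes, 81.9% to 93.7% of all probes were dimmer in parthenotes and 59.8% to 80.4% in fertilised embryos. Both genes therefore gave signal above that of most of all 43603 probes also in the fertilised pools. Only 27508 to 27835 spots an array were well above background in Cy5, so the dimmer probes include many without a detected signal. Probes bind with different strength, so a rank in brightness is not an order of transcript amounts.

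Few probes of that brightness had so low a fertilised share. Among the 4738 probes at least as bright as OVGP1 in the parthenote channel of array 2, and the 1242 on array 3, none had a lower fertilised signal relative to the parthenote signal. On array 1 OVGP1 had the third lowest of 4091, behind the unnamed probe A_04_P072312 at 1.69% in first place. On array 4 it followed HBB2, a beta-globin gene, at 5.44%, and the median probe of such brightness stood at 97.6% to 98.4% over the 4 arrays. The brightest SCGB1A1 probe, at 22.0%, 14.3%, 15.0% and 10.3%, held places 8, 3, 7 and 5 among the 2732 to 4988 probes at least as bright as itself. These places describe the same values that led to the choice of both genes.

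The ratio of SCGB1A1 depended on which end of the 79 bases a probe covered. In the earlier set the mean log2 ratio was 2.17, 2.71, 2.73 and 3.25 on arrays 1 to 4. In the later set it was 2.33, 3.09, 3.50 and 4.09. The later set was thus higher on each array, by 0.16, 0.38, 0.76 and 0.84 (mean 0.53 ± 0.32, SD, n = 4 arrays). Within a set and an array the 5 probes differed by an SD of 0.02 to 0.07, less than the gap between the sets on each array. The 2 sets give a mean of 2.72 ± 0.44 and of 3.25 ± 0.74 (SD, n = 4 arrays), which are 6.57-fold and 9.51-fold. Taken over arrays, these means differ by less than the SD of the later set. That SD leaves out that both sets were read on the same 4 arrays, on each of which the later set was higher. The software's error of a single SCGB1A1 ratio was 0.28 to 0.44, above the gap on array 1 and below the gap on arrays 3 and 4. In both sets array 1 had the lowest ratio and array 4 the highest.

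**Figure D2:**
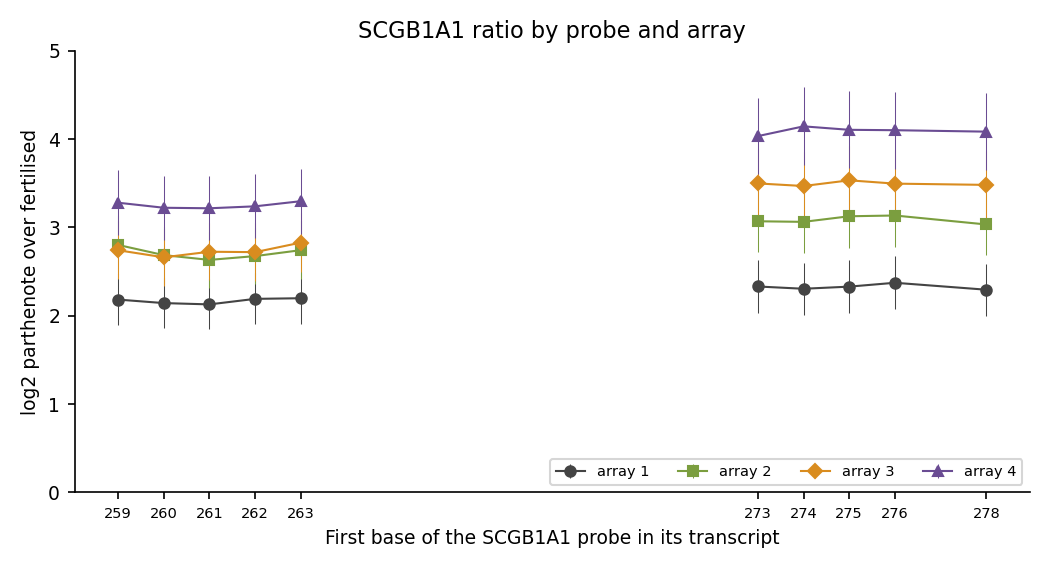
Log2 ratio of parthenote over fertilised for each SCGB1A1 probe, placed by the first base it covers in the transcript, with 1 line per array and bars for the scanner software's error of each ratio. Probes within a set lie almost level, the later set lies above the earlier one by 0.16 on array 1 and by 0.84 on array 4, and array 1 is lowest in both sets.

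OVGP1 had a higher ratio on every array than the brightest SCGB1A1 probe and than the mean of each SCGB1A1 probe set. Set against the brightest SCGB1A1 probe, its log2 ratio was larger by 1.77, 0.66, 1.17 and 0.86. Against the later SCGB1A1 probe set the distance was narrower, and on array 4 the ratios of 4.14 for OVGP1 and 4.09 for the later set lay within the error of a single ratio. On that array 1 probe of the later set, A_04_P001939, was level with OVGP1, at 17.68-fold against 17.67-fold.

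In the deposited processing the level of OVGP1 moved between arrays far more than its ratio did. From the dimmest to the brightest array its signal rose 6.36-fold in the parthenote pools and 5.36-fold in the fertilised pools, and array 3 was brightest in both channels, with array 4 next. The SD of its log2 signal over arrays was 1.24 in the parthenote and 1.11 in the fertilised channel, larger than for 99.8% of the 24136 probes well above background in both channels, whose median SD was 0.16 and 0.11. The SD of its log2 ratio, 0.29, was larger than for 85.6% of these probes, with a median of 0.14. Bringing every channel to a common upper quartile of these probes left the SDs at 1.28 and 1.13. Pools of both groups that shared an array were thus high or low together for OVGP1.

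SCGB1A1 varied less between arrays in level and, in the deposited ratios, more in ratio. For its 10 probes the SD of the log2 signal was 0.52 to 0.66 in parthenotes and 0.60 to 0.84 in fertilised embryos, larger than for 96.3% to 98.1% and for 98.8% to 99.4% of those probes. The SD of the ratio was 0.43 to 0.77. With other processing, normexp with loess, it was 0.61 for the brightest SCGB1A1 probe and 0.92 for OVGP1. With normexp and median centring it was 0.49 and 0.75, so the order of the 2 genes turned in both. After repair of the local background it was 0.43 and 0.35, the order of the deposited ratios. The parthenote pools kept the same order for the brightest SCGB1A1 probe as for OVGP1, with array 3 first, then 4, 1 and 2. The fertilised pools did not, since array 1 was the second brightest for SCGB1A1 and the dimmest for OVGP1. With 4 arrays no correlation across samples was computed.

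**Figure D3:**
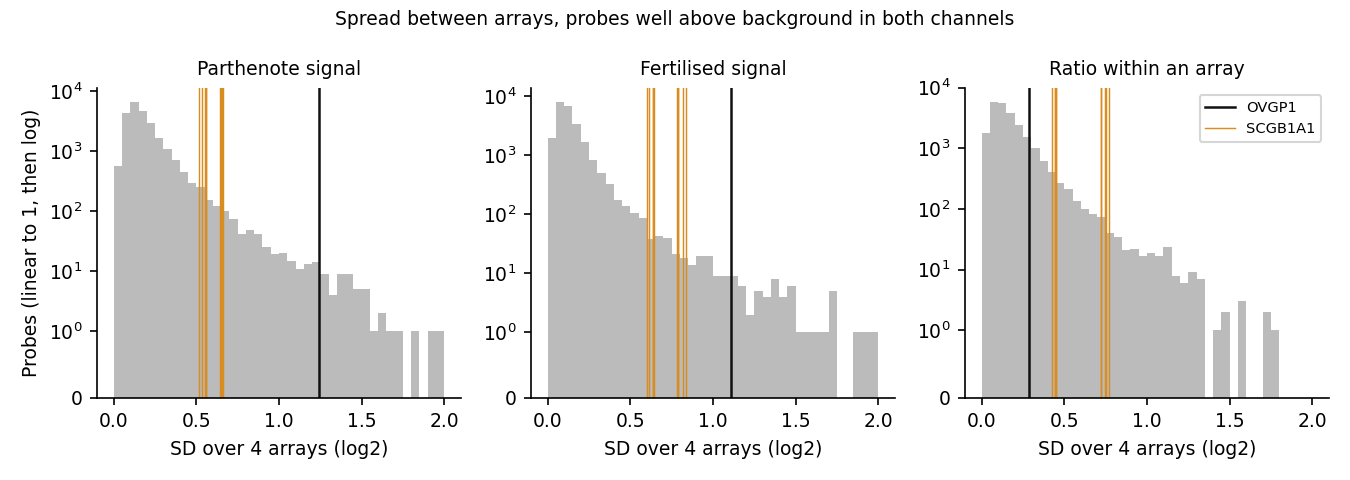
Number of probes (linear up to 1 and logarithmic above) by the SD over the 4 arrays of the log2 parthenote signal, the log2 fertilised signal and the log2 ratio, for the 24136 probes well above background in both channels, with vertical lines at OVGP1 and at the 10 SCGB1A1 probes. OVGP1 lies in the far tail for both signals, at 1.24 and 1.11, but within the main body for the deposited ratio, at 0.29. With normexp and loess the SD of its ratio was 0.92.

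The genes around these 2 were read from lists of related genes, 1 probe a gene, and called by limma over all 43595 probes tested with Benjamini-Hochberg adjustment at 0.05. A gene counts as measured where its probe was tested, also if its signal was above background in neither group. Of 9786 named genes 24.0% passed, 11.8% higher and 12.2% lower in parthenotes, and their median log2 ratio was 0.00. Of all probes, 8996 passed (20.6%, 9.53% higher and 11.1% lower). Together 33 genes of the lists passed, but with array 1, 2, 3 or 4 left out only 16, 5, 6 and 1 list genes did. Without array 4 that gene was SCGB3A1 (adjusted p = 0.0481 in limma). With another scaling, normexp with median centring, which moved the median named gene by -0.18, 7 of the 33 turned their sign, namely CST3, PGRMC2, HLTF, FN1, TAGLN, KRT8 and POU5F1.

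Of the other secretoglobins none was called higher in parthenotes. The array held 71 further probes described as secretoglobins or as lipophilins, the related small secreted proteins of glands, and 65 of them were never well above background in any channel. SCGB3A1 was lower in parthenotes by -0.71 ± 0.10 on the log2 scale (SD over 4 arrays, limma adjusted p = 0.0103), with a parthenote signal above background on 1 array only. A probe of lipophilin CP, A_04_P002414, was also lower (adjusted p = 0.0473 in limma), with a fertilised signal above background on 3 arrays and a parthenote signal on none, and at these levels no fold could be given. Other probes of that transcript did not pass. SCGB1D1 and SCGB3A2 were not above background in either group.

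The list of secretory epithelium of the female tract had 16 of its 34 genes measured, of which 4 were higher and 1 lower, with a median log2 ratio of 0.01. SPP1, the secreted adhesion protein osteopontin that is abundant in uterine glands, had log2 ratios of 3.35, 4.36, 3.78 and 6.73 on arrays 1 to 4 (mean 4.55 ± 1.51, adjusted p = 0.0328 in limma). On array 4, whose ratio stood well above the others, its fertilised signal was not above background, so that ratio and the mean have no measured lower value there. PIGR, which carries immunoglobulins across secretory epithelia, rose by 2.90 ± 0.42 (adjusted p = 0.0101 in limma), while its 6 probes ranged from 0.29 to 3.88. CLU, encoding the secreted chaperone clusterin, rose by 2.12 ± 0.68 (adjusted p = 0.0308 in limma). CST3, a secreted protease inhibitor, passed at a ratio of 0.25 that turned with median centring. WFDC2, a marker of this epithelium, had -1.52 on array 1 and 0.26 to 0.71 on the others, and did not pass. LCN2 and EPCAM had ratios of -0.57 and -0.38 and did not pass either. Of the other defining markers PAX8, SOX17, FOXA2, MUC1 and MUC16 no probe was found by name, and they were not analysed here.

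Of the glycoside hydrolase family 18, to which OVGP1 belongs, 3 of 6 genes were measured besides it, of which 2 were higher and none lower, with a median log2 ratio of 1.69. With normexp and loess the median was 0.16 with 1 gene called, and with median centring it was 0.38. CTBS, a lysosomal chitobiase, gave 1.73 ± 0.55 (adjusted p = 0.0305 in limma), with 1.11, 1.66, 2.45 and 1.70 on arrays 1 to 4. CHIT1, a chitinase of macrophages, was not well above background in fertilised embryos on any array and was at least 1.44-fold higher in parthenotes (adjusted p = 0.0178 in limma). In parthenotes CHIT1 was above background on 3 arrays only, so this bound rests in part on a signal not above background and is uncertain. CHI3L2 was above background in neither group. Of the 3 measured genes only CTBS was well above background on all 4 arrays in at least 1 group. As for OVGP1, the CTBS ratios were above 0 on all 4 arrays, but its parthenote signals of 196 to 440 were spread less widely.

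Genes of the steroid hormone response were next, since oestrogen is known to raise OVGP1 and progesterone to raise SCGB1A1 in the tract. Of 20 listed, 16 were measured, 4 higher and 1 lower, with a median of 0.05, while with normexp and loess 1 gene was called. SULT1E1, which inactivates oestrogens by sulfation, rose by 3.00 ± 0.59 (adjusted p = 0.0147 in limma), with 3.75, 2.55, 2.52 and 3.18 on the 4 arrays. PGR, the progesterone receptor, passed at 2.08 ± 0.63 (adjusted p = 0.0283 in limma), with signals of only 29.0 to 45.7 in parthenotes. In fertilised embryos it was above background on 1 array only, so the size of its ratio is uncertain. AREG, a growth factor induced by progesterone in the uterus, rose by 0.90 ± 0.27 (adjusted p = 0.0284 in limma). PGRMC2, a membrane protein linked to progesterone, passed at 0.15, a sign that turned with median centring, and FKBP4, a cochaperone of steroid receptors, passed at -0.27. The oestrogen receptors ESR1 and ESR2 were above background in neither group.

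Of 15 listed regulators of the uteroglobin gene, 7 were measured, of which 1 passed above and 2 below 0, with a median of -0.06. HLTF, known in the rabbit as RUSH and found through its binding to the uteroglobin promoter, passed at 0.51 (adjusted p = 0.0399 in limma), a sign that turned with median centring. STAT3, a signal transducer of cytokine receptors, fell by 0.45 (adjusted p = 0.0392 in limma). SP1, FOXA1 and EGR1 had ratios of -0.03, -0.24 and 0.50 and did not pass, and KLF9 was above background in neither group. Of 12 measured binding partners of both proteins out of 14, FN1, encoding fibronectin, passed at 0.55 ± 0.14 over 3 arrays (adjusted p = 0.0458 in limma), a sign that turned with median centring. With the marked spot of the remaining array kept, no partner was called by its brightest probe. With marked spots left out, all 11 FN1 probes passed, at 0.54 to 0.79, and all were read on the same arrays. The zona pellucida genes ZP2 and ZP4 were above background in neither group, and LMBR1L and LRP2, described as receptors of uteroglobin, had ratios of -0.09 and -0.06 and did not pass. The median of these partners was 0.00. It was set by FPR2, ZP2 and ZP4, whose ratio of 0 is the value deposited where both channels are dim. Of the 12 partners, 8 were well above background on all 4 arrays in at least 1 group.

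Markers of other cell types were read beside both members. Of 10 measured markers of motile ciliated cells out of 20, 6 were higher and none lower, with a median log2 ratio of 2.08. That median was 0.56 with normexp and loess, 0.59 with median centring and 0.63 after repair of the local background. CAPS, a calcium-binding protein, rose by 2.42 ± 0.42 (adjusted p = 0.0125 in limma), and DYNLRB2, a dynein light chain, by 1.98 ± 0.54 (adjusted p = 0.0244 in limma). RSPH1 and CFAP52, parts of the ciliary axoneme, were at least 2.69-fold and 2.25-fold higher, since neither was well above background in fertilised embryos. In parthenotes CFAP52 was above background on 3 arrays only, so its bound rests in part on a signal not above background and is uncertain. FOXJ1, the factor that sets the ciliated programme, was above background in neither group. The summed signal of the list was 2717, 1476, 3757 and 2468 in the parthenote pools of arrays 1 to 4 and 489 to 637 in the fertilised pools. Like the OVGP1 and SCGB1A1 signals it was highest on array 3 and lowest on array 2 in parthenotes. CAPS, at 839 to 2384, made the largest part of this sum, followed by DYNLRB2 at 420 to 824. Of the 10 markers, 5 were well above background on all 4 arrays in at least 1 group.

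Of 5 measured erythroid genes out of 9, HBB2, HBA and ALAS2 were higher, with log2 ratios of 3.25 ± 1.34, 1.64 ± 0.69 and 1.94 ± 0.46 (adjusted p = 0.0473, 0.0494 and 0.0196 in limma). Of the 2 HBB2 probes only 1 passed. SLC4A1, at -0.38 and lower on all 4 arrays, and EPB42, at 0.32, did not pass. SLC4A1 was above background on 1 fertilised array only and EPB42 in neither group. The list's median was 1.64, but 1.03 with normexp and loess and 0.84 with median centring. Its signals summed to 60372 to 133005 in parthenote and 8228 to 29529 in fertilised pools. Of 11 measured leukocyte genes out of 13, CD14, CD48, CD68 and ITGB2 were higher by 0.45 to 1.85, with a list median of 0.33, and CD48, a lymphocyte and monocyte surface protein, had the largest ratio of these, 1.85 ± 0.30 (adjusted p = 0.0116 in limma). CD8A, ITGAM and MS4A1, also above background on all arrays in both groups, had ratios of -0.18, -0.02 and 0.09 and did not pass. CD4 and CD74, at 0.33 and 1.12, did not pass either. The common leukocyte gene PTPRC and the T-cell gene CD3E were above background in neither group, and the summed signal was 1057 to 1262 against 735 to 795. Of 10 measured stromal and muscle genes out of 12, TAGLN passed at 0.66, a sign that turned with median centring, and COL1A1, PDGFRB, ACTA2 and MYH11 were above background in neither group. That list had a median of 0.38 and summed to 3664 to 5074 against 2342 to 3223. The part of these cell types in the OVGP1 and SCGB1A1 signals was not tested.

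Markers of the labelled tissue, the blastocyst, were well above background in both groups on all arrays for 8 of 9 measured genes, and ELF5, a trophectoderm factor, was above background in neither. KRT8, a keratin of trophectoderm, gave signals of 18902 to 27439 in parthenotes and 15260 to 16755 in fertilised embryos, and POU5F1, a pluripotency factor, 8729 to 9914 and 7569 to 8420. GATA3 and TFAP2C were also well above background on all arrays. Of 9 measured genes of this list out of 16, KRT8 and POU5F1 passed at ratios of 0.58 and 0.21 that turned with median centring, and GATA2 fell by 0.64, with a list median of 0.03. CDX2, NANOG and SOX2 had no probe by name and were not analysed here. On the arrays as a whole, 25805 to 26339 spots were well above background in Cy3 and 27508 to 27835 in Cy5, and 26 to 48 spots an array were marked as outliers.

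**Figure D4:**
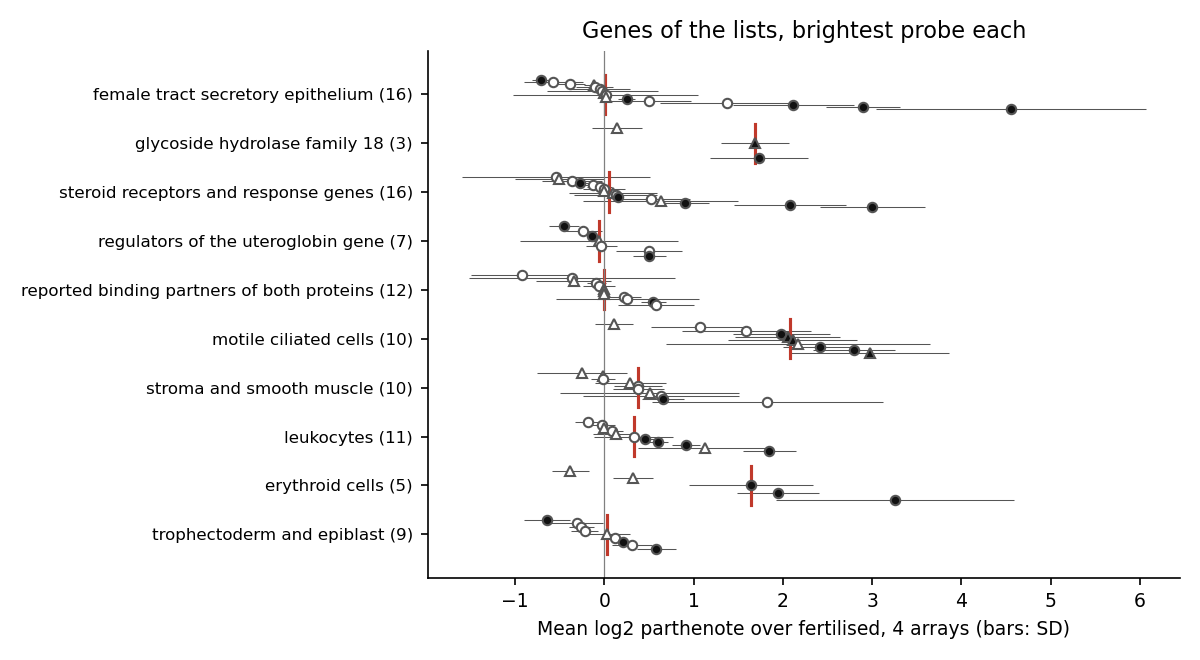
Mean log2 ratio of parthenote over fertilised (bars, SD over arrays) of each measured gene by list, with the number measured beside the list name, filled symbols for genes past the limma threshold, triangles for genes not well above background on all 4 arrays in either channel, and a vertical bar at each list's median. The medians of ciliated (2.08), erythroid (1.64) and glycoside hydrolase family 18 (1.69) genes lie right of 0, at 0.56, 1.03 and 0.16 with normexp and loess, while those of secretory epithelium (0.01) and of regulators of the uteroglobin gene (-0.06) lie near 0.

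The genes most like each member were sought over the 8 channels, among 24485 probes well above background in the parthenote channel on all arrays. Likeness was the root mean square difference between log2 signals after each probe's own mean was taken off. Among named genes the nearest to OVGP1 were PIGR (0.40), ODAD2 (0.41), which docks outer dynein arms, SPAG6 (0.47), a protein of the ciliary central pair, PSMB9 (0.50), an immunoproteasome subunit, and AKAP14 (0.57), a kinase anchor of cilia. The named genes nearest to SCGB1A1 were ENKUR (0.22), ZBTB20 (0.27), a transcriptional repressor, HOXB6 (0.27), a homeobox factor, CFAP141 (0.28) and CAPS (0.31). In fertilised embryos these probes were above background on no array for SPAG6, AKAP14, ENKUR and HOXB6, on 1 for PIGR and ODAD2 and on 3 for PSMB9, so the distances rest in part on values at or near the background. The likeness is a description, since probes were kept for their parthenote signal and both members were chosen as high in parthenotes. OVGP1 and SCGB1A1 lay 0.94 apart, farther than any of these, which were picked as the nearest. By distance from OVGP1 the brightest SCGB1A1 probe ranked 96 among the 24485 probes. By distance from that probe OVGP1 ranked 552. All 8 values of a probe share their 4 arrays, and a gene's probes could disagree, as the 5 of SPAG6 did with ratios of 1.08 to 5.95. The PIGR, SPAG6 and CAPS probes found here, with mean ratios of 3.88, 4.08 and 2.45, were not those read in the lists, at 2.90, 1.08 and 2.42.

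**Figure D5:**
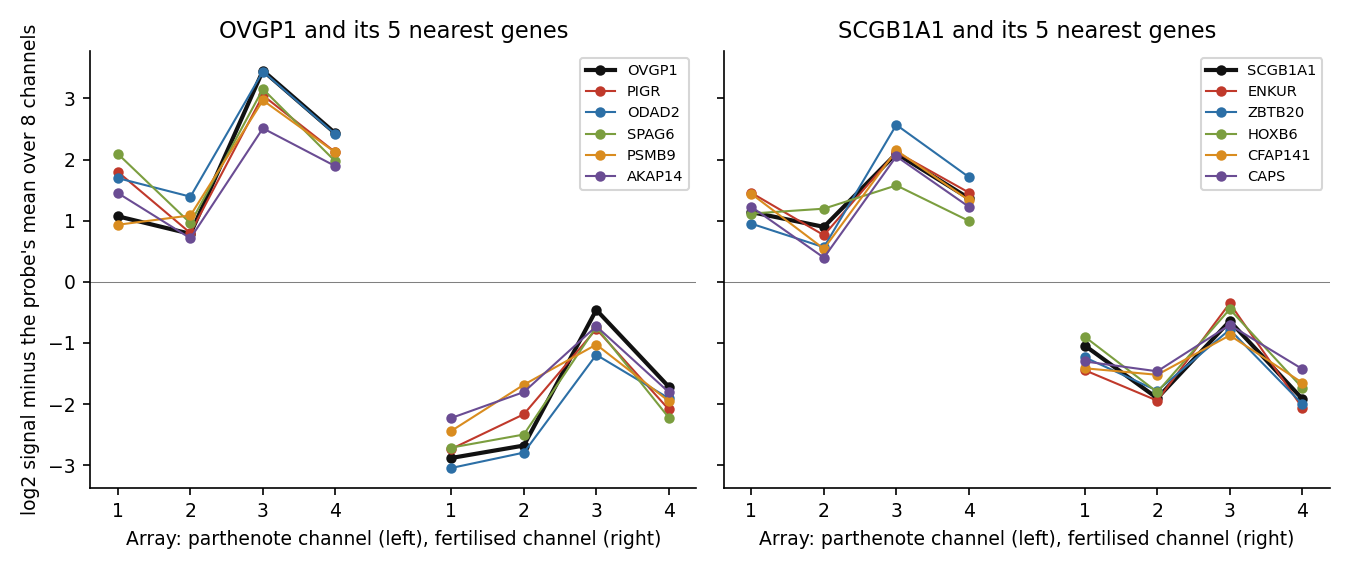
Log2 signal minus each probe's own mean over the 8 channels, for OVGP1 and SCGB1A1 (thick lines) and the 5 named genes nearest to each, with parthenote channels of arrays 1 to 4 on the left and fertilised channels on the right of each panel. Array 3 is the highest for OVGP1 and SCGB1A1 in both channels and for the other genes in the parthenote channel, while many fertilised values of the other genes are not above background.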

How the data were processed

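RNA of 4 parthenote and 4 fertilised pools was read on 4 arrays on 1 slide. The authors extracted spots with Agilent Feature Extraction (version 10.10.1.1 in the submitters' processing notes) under default parameters. In the deposited files, mean and local background intensity are unnormalised, and processed intensity is background-subtracted and dye-normalised. The deposited log10 ratio is Cy5 over Cy3, and is 0 where both channels are dim. The software's error of a ratio is a deposited score on the log10 scale. The deposited value table holds the same log10 ratios with the sign turned. Here ratios were turned to log2 parthenote over fertilised, control spots were dropped, marked spots treated as missing, and repeated spots averaged. The test across probes with values on 3 or more arrays was that of limma (3.58.1, run in R 4.3.3, two-sided, Benjamini-Hochberg), checked on simulated data. The ratio pairs the pools of an array. An "at least" fold sets the dim group at the lowest signal well above background of each array, open to dye bias since no dyes were swapped. The number of arrays limits precision. The array was annotated through its own fields and a RefSeq gene table (mOryCun1.1, names only), which named 21999 of 43603 probes. A gene was read from its brightest probe over the 8 channels. Named genes were all probes of the members, any gene of the secretoglobin, glycoside hydrolase, regulator and partner lists, of other lists the 3 largest ratios in each direction and the defining markers, and the 5 nearest genes per member. Other genes named were chosen after their values were seen. The values of 1 list gene are not reported here. Members and lists were chosen with earlier results of these data known. Alternatives were normexp (offset 50) with loess or median centring, the ratio of processed signals, the value table, a filter on dim probes, marked spots kept, each array left out, unpaired channels, the methods' t-test, the mean of a gene's probes, brightness without dye normalisation and, chosen after seeing the data, normexp with loess after repair of local background.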

Additional observations from a re-analysis of the deposited data

Results flagged for a closer look

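The log2 ratio of CAPS, a calcium-binding protein on the list of ciliated cells, was singled out because 1 array stood apart. Array 2 gave 1.80, while arrays 1, 3 and 4 gave 2.54, 2.68 and 2.66, so that the gap to the nearest array took up 0.847 of the whole range. It was the only such case among 65 groups of 4 values examined, which were the signals and ratios of the 11 OVGP1 and SCGB1A1 probes and the ratios of the list genes that passed with a value on all arrays, and chance alone marks about 1 in 20.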

How the results depend on the processing

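OVGP1 and SCGB1A1 stayed higher in parthenotes under each alternative run. From a mean log2 ratio of 3.87, OVGP1 moved to 3.44 with normexp and loess and to 2.85 with normexp and median centring. SCGB1A1 moved from 2.75 to 1.83 with median centring. The SD over arrays of the OVGP1 ratio was 0.29 as deposited, 0.92 with normexp and loess and 0.75 with median centring. With an array left out, OVGP1 lay between 3.78 and 4.00 and SCGB1A1 between 2.58 and 2.94. The number of probes called, 8996, became 31610 with median centring, 21399 with the ratio of processed signals, 16358 with no replicate block (channels unpaired) and 4435 with the methods' t-test, and 1239 to 5736 with an array left out (5736, 1939, 2636 and 1239 without array 1, 2, 3 and 4). The 33 list genes called became 69 with median centring, 55 with processed signals and 11 with the methods' t-test, and between 1 and 16 with an array left out. Calls split into 4155 higher and 4841 lower, but 13912 and 7487 with processed signals and 11117 and 5241 unpaired. Brightness ranks by mean intensity minus local background differed by less than their SD over arrays. The value table holds the same ratios and says nothing about stability. The causes were not tested. Signal over background also limits list genes, since many were not above background in fertilised embryos.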

Other observations

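The array also held 34 probes of 7 sequences described as coming from an oviductal cDNA library, noticed after the data were seen. Of these probes 19, from 3 sequences, were higher in parthenotes in limma and none was lower, against 9.53% of all probes higher, with a median log2 ratio of 0.23. The 5 probes of 1 sequence, of which A_04_P033242 is the first, had ratios of 1.70 to 1.73, and the probes of the other 6 sequences had ratios of -0.07 to 0.43. Probes of 1 sequence are repeats of 1 measurement and are not independent.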
